A study of Mus musculus with 10 samples.

Results

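The 8 genes described here encode the core of the transforming growth factor beta (TGF-beta) pathway: the receptors Tgfbr1 and Tgfbr2, the signalling proteins Smad2, Smad3 and Smad4, the inhibitory Smad7, and the corepressors Ski and Skil. Their members are the accessible regions (peaks) whose nearest protein-coding gene body, within 50 kb, is one of these genes. There were 59 such peaks among the 36251 analysed: 14 for Smad3, 12 for Tgfbr2, 9 for Ski, 7 for Smad7, 5 each for Smad2 and Skil, 4 for Smad4 and 3 for Tgfbr1. Of these, 8 lay within 1 kb of a gene end (1 for each gene), 29 lay elsewhere inside a gene and 22 lay outside. No member peak was equally near to a second gene.

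TGF-beta binds the type II receptor Tgfbr2, which recruits and phosphorylates the type I receptor Tgfbr1. The activated type I receptor phosphorylates Smad2 and Smad3, which enter the nucleus with the shared partner Smad4. Smad7 blocks the activated receptor, and Ski and Skil hold SMAD target genes silent. In intestinal lymphocytes TGF-beta is known for its part in tissue residency and in shaping innate lymphoid cell (ILC) subsets.

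ATAC-seq, which marks open chromatin by the insertion of adapters with the Tn5 transposase, was measured in ILCs that had been sorted out of lamina propria tissue of the small intestine, from C57BL/6 mice. All mice, controls included, carried Id2creERT2 (a Cre recombinase that tamoxifen activates in cells expressing Id2) and a tdRFP reporter, and all received a tamoxifen diet several weeks before sorting. Control (Id2creERT2+ x tdRFP+, n = 3) had no floxed allele named in the labels, whereas RORgt-KO (n = 2) carried the floxed allele that its name refers to. RORgt-Tbet-KO (n = 2) carried the same allele and Tbx21f/f, and RORgt-RORa-KO (n = 3) carried it and Roraf/f. The deleted genes encode lineage-defining transcription factors, such as T-bet from Tbx21, and the study asked how chromatin differs in ILCs that lack them. Each library came from 1 mouse or from 2 or 3 pooled mice, deletion followed Id2 activity rather than a single ILC subset, and the sources used here do not give the ages of the mice.

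The libraries held 2271585 to 5047436 reads in peaks, with a median of 37 to 73 reads per peak. Both RORgt-Tbet-KO libraries and RORgt-RORa-KO replicate 3 were the deepest. Control replicate 1 had 194 empty peaks, against 9 to 67 in the other libraries. All 12 ILC marker genes (Il7r, Id2, Gata3, Thy1, Kit, Il2rg, Ptprc, Rora, Zbtb16, Ncr1, Il1r1 and Il23r) had at least 1 peak, while the B cell genes Cd79a, Cd79b and Ms4a1 and the myeloid genes Csf1r, Lyz2 and Cd68 had none. Other B cell genes (Blk, Ebf1, Pax5 and Cr2) held 13 peaks and the other 4 myeloid genes held 5. Of the 8 T cell genes, 6 had a peak (Cd3g and Cd6 did not), and their summed log2 level was 8.74 to 9.05 for Control, 9.04 to 9.16 for RORgt-KO, 9.28 to 9.38 for RORgt-Tbet-KO and 9.59 to 9.85 for RORgt-RORa-KO. The summed B cell level was 10.07 to 10.19 for Control and lower in every knockout library, at 9.43 to 9.48, 9.51 to 9.73 and 9.20 to 9.44 for RORgt-KO, then RORgt-Tbet-KO, then RORgt-RORa-KO. The epithelial level was 9.73 to 9.96 for Control and higher in every knockout library, at 10.24 to 10.25, 10.24 to 10.25 and 10.05 to 10.17 in that order. The part of these marker levels in the results was not tested. In these bulk libraries a change of accessibility within cells and a change in the mix of cells cannot be told apart.

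An accessible peak covered the start of Tgfbr2 and the start of Smad3, the receptor and the SMAD with the most peaks that changed. The 250 bases before each start are shown to set these promoters beside the distal peaks described later (RefSeq, GRCm38.p6, both on the minus strand, written 5′ to 3′). The Tgfbr2 window is chr9:116175364-116175613 and the Smad3 window is chr9:63757995-63758244. Capitals mark CAGAC, the SMAD box.
Tgfbr2: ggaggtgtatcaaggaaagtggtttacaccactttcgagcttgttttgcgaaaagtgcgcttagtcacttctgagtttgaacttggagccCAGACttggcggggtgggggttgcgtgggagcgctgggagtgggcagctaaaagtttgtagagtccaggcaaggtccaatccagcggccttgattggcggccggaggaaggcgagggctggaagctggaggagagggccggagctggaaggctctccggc
Smad3: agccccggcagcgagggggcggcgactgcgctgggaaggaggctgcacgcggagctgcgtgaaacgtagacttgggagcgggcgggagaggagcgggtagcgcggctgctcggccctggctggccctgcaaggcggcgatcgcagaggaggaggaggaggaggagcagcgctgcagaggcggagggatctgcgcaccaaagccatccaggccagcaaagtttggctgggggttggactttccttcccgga
The Tgfbr2 window was 58.4% G or C and held CAGAC once, and the Smad3 window was 69.2% G or C and did not hold it. On both strands, CAGAC occurred in 42.2% of 32851 promoter windows of the same length. Neither window held AGGTCA (a nuclear receptor half-site, in 14.0% of windows), AGGTGTGA (a T-box half-site, in 1.12%) or TGACTCA (an AP-1 site, in 4.46%). These are matches of letters only.

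Values are log2 scaled reads in a peak, and a difference is given on this log2 scale with its moderated standard error (SE) from limma. A peak was called where limma's p, adjusted over all peaks, was under 0.05. Against Control, 19 of the 59 peaks were called in RORgt-Tbet-KO (16 higher and 3 lower) and 21 in RORgt-RORa-KO (17 higher and 4 lower). In RORgt-KO 1 peak was called, which was lower. The background was 22.6%, 31.2% and 12.3% of all peaks in RORgt-Tbet-KO, RORgt-RORa-KO and RORgt-KO. The share of members called was thus 32.2% in RORgt-Tbet-KO, 35.6% in RORgt-RORa-KO and 1.69% in RORgt-KO. The calls were not spread evenly over the genes. Tgfbr2 and Smad3 held 6 and 7 of those in RORgt-Tbet-KO, and 8 and 3 of those in RORgt-RORa-KO, all of them higher. No other member gene held more than 2 in either group.

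The direction of the calls was uneven. Higher peaks made up 11.3% of all peaks in RORgt-Tbet-KO and 15.1% in RORgt-RORa-KO, and lower peaks 11.3% and 16.1%. In RORgt-KO, 5.19% of all peaks were higher and 7.12% lower. The median difference of the 59 peaks was 0.40 in RORgt-Tbet-KO, 0.34 in RORgt-RORa-KO and 0.16 in RORgt-KO, beside medians over all peaks of 0.01, 0.02 and 0.02. At an unadjusted p under 0.05, RORgt-KO had 6 higher and 5 lower member peaks. The RORgt-KO median was 0.08 without RORgt-KO replicate 1, 0.09 without Control replicate 1, 0.11 without Control replicate 2 and 0.24 with the replicate number as a block. Leaving out 1 library gave medians of 0.36 to 0.51 in RORgt-Tbet-KO and 0.27 to 0.39 in RORgt-RORa-KO. These 3 comparisons share the Control libraries.

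The number of calls in RORgt-Tbet-KO depended on single libraries. Of the 59 peaks, 5 were called when its replicate 2 was left out, 7 when its replicate 1 was, and 9 when Control replicate 2 was. Over all peaks the count moved too, from 8189 to 3560, 3359 and 5964 in the same fits. Among members the count was 8 without the mean-variance trend in limma and 29 with library weights, beside 5783 and 12468 of all peaks. With all libraries thinned to 2271585 reads, 12 peaks were called in RORgt-Tbet-KO and 16 in RORgt-RORa-KO, beside 7295 and 10219 of all peaks.

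The split by direction in RORgt-RORa-KO also moved with single libraries. Without its replicate 3, 9 member peaks were higher and 6 lower, beside 4696 and 5312 of all peaks. Without Control replicate 1, 10 were higher and 4 lower, and without its replicate 1, 11 were higher and 3 lower. No mean-variance trend gave 10 higher and 4 lower. The deep replicate 3 of RORgt-RORa-KO was above the shallow replicate 2 in 42 of the 59 member peaks, against 46.5% of all peaks. The part of depth in the calls was not otherwise tested.

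**Figure D1:**
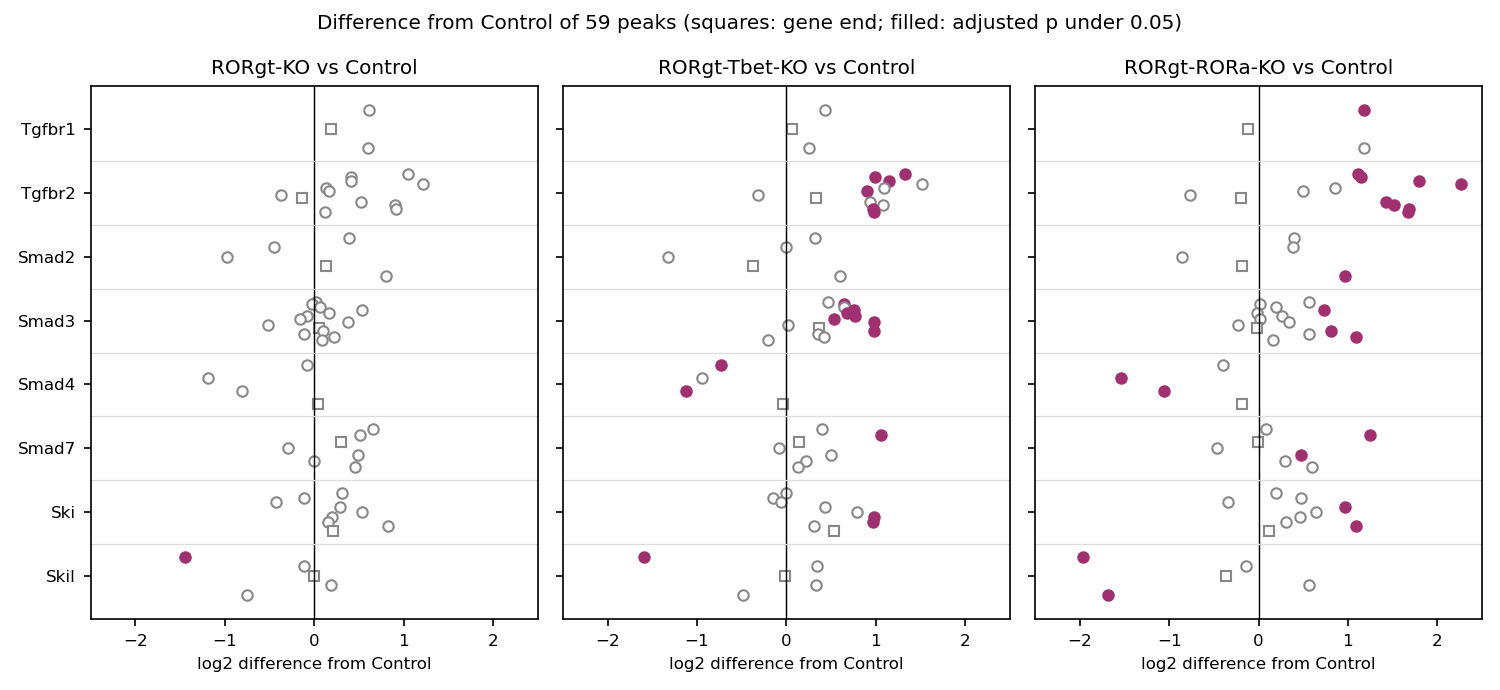
Log2 difference from Control (x axis) of the 59 member peaks, grouped by gene (y axis), in 3 panels, 1 for each knockout group. Squares are peaks at a gene end and filled symbols passed limma's adjusted threshold: 1 peak in RORgt-KO, 19 in RORgt-Tbet-KO and 21 in RORgt-RORa-KO, with no square filled.

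The peaks at the gene ends did not pass the test. Of the 8 gene-end peaks, 0 were called by limma in any of the 3 contrasts with Control, where 3.1%, 12.2% and 14.9% of all gene-end peaks were called for RORgt-KO, then RORgt-Tbet-KO, then RORgt-RORa-KO. At an unadjusted p under 0.05 the counts were 0, 2 (1 higher and 1 lower) and 0, and with limma voom on the recovered reads they were 0, 1 and 0. Their differences ran from -0.13 to 0.30 in RORgt-KO, from -0.38 to 0.53 in RORgt-Tbet-KO and from -0.36 to 0.12 in RORgt-RORa-KO. Away from the gene ends, 1, 19 and 21 of 51 member peaks were called in the same order, beside backgrounds of 15.5%, 26.3% and 37.5%.

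Per kb of peak, accessibility at the gene end in Control was highest for Skil (log2 8.80 ± 0.22, SD, n = 3) and lowest for Tgfbr2 (7.36 ± 0.31). Between them came Smad2 (8.08 ± 0.14), Smad4 (7.82 ± 0.19), Smad7 (7.74 ± 0.19), Tgfbr1 (7.69 ± 0.20), Ski (7.67 ± 0.33) and Smad3 (7.65 ± 0.23). The neighbours from Smad4 to Smad3 lay within their SDs of each other. Values of the Tgfbr2 and Smad3 gene-end peaks follow with those genes.

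At the other 6 gene ends the libraries of the groups overlapped for the most part. The Skil peak (31093677 to 31096004) held 10.22, 10.05 and 9.78 for Control, 10.16 and 9.87 for RORgt-KO, 9.99 and 10.0 for RORgt-Tbet-KO, and 9.53, 9.26 and 10.17 for RORgt-RORa-KO. The Smad2 peak (76240843 to 76242340) held 8.82, 8.58 and 8.58 for Control, 8.81 and 8.78 for RORgt-KO, 8.34 and 8.23 for RORgt-Tbet-KO, and 8.43, 8.36 and 8.65 for RORgt-RORa-KO. Here both RORgt-Tbet-KO libraries were below all others, at -0.38 against Control (SE 0.17), without passing (limma adjusted p = 0.115). The Smad4 peak (73703416 to 73704291) held 7.75, 7.42 and 7.73 for Control, 7.60 and 7.76 for RORgt-KO, 7.73 and 7.45 for RORgt-Tbet-KO, and 7.53, 7.34 and 7.46 for RORgt-RORa-KO. The Smad7 peak (75366700 to 75367959) held 8.03, 7.90 and 8.28 for Control, 8.18 and 8.56 for RORgt-KO, 8.33 and 8.11 for RORgt-Tbet-KO, and 8.04, 7.61 and 8.56 for RORgt-RORa-KO. Every knockout group overlapped Control at both of these SMAD genes. The Tgfbr1 peak (47352420 to 47353906) held 8.42, 8.04 and 8.33 for Control, 8.38 and 8.53 for RORgt-KO, 8.30 and 8.35 for RORgt-Tbet-KO, and 8.04, 8.08 and 8.32 for RORgt-RORa-KO. The Ski peak (155223073 to 155224082) held 7.95, 7.31 and 7.79 for Control, 7.94 and 7.86 for RORgt-KO, 8.27 and 8.16 for RORgt-Tbet-KO, and 7.74, 7.56 and 8.10 for RORgt-RORa-KO. At Ski both RORgt-Tbet-KO libraries were above the rest, at 0.53 over Control (SE 0.21), and this did not pass either (limma adjusted p = 0.0603). The Ski peak lay 538 bp outside the gene, and no peak covered the 250 bases before the Ski start.

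Tgfbr2 (chromosome 9, 116087695 to 116175363, GRCm38) encodes the type II receptor, and it had the most peaks that differed among the 4 groups. Of its 12 peaks, 9 passed limma's test of any difference among the groups, which 30.7% of all peaks passed. Against Control, 6 peaks rose in RORgt-Tbet-KO and 8 in RORgt-RORa-KO, and none fell. These were 50% and 66.7% of them, beside 22.6% and 31.2% of all peaks called. In RORgt-KO limma called 0 of the 12, with 3 higher at an unadjusted p under 0.05 and 0 by voom.

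A pair of distal peaks lay before the Tgfbr2 start. At 116212033 to 116212434, 36.7 kb outside the gene body, the values were 4.62, 4.28 and 5.0 for Control, 5.64 and 5.46 for RORgt-KO, 5.80 and 5.42 for RORgt-Tbet-KO, and 6.44, 5.95 and 6.56 for RORgt-RORa-KO. Every RORgt-RORa-KO library was above every other library, and every knockout library was above Control. The peak rose by 1.68 (SE 0.29, limma adjusted p = 5.27e-05) in RORgt-RORa-KO, a 3.21-fold difference. In RORgt-Tbet-KO it rose by 0.97 (SE 0.33, limma adjusted p = 0.0304), and this call was lost without Control replicate 1 (adjusted p = 0.0525), Control replicate 2 (0.104), RORgt-Tbet-KO replicate 1 (0.290) or replicate 2 (0.0895), or with only the 2 groups fitted (0.0541). In thinned reads the RORgt-Tbet-KO difference was 0.59 (limma adjusted p = 0.286). For RORgt-KO the estimate was 0.92 (SE 0.33, limma adjusted p = 0.0633).

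The neighbouring peak at 116214373 to 116215000, 39.0 kb outside, held 4.18, 4.96 and 4.48 for Control, 4.68 and 4.65 for RORgt-KO, 5.30 and 5.74 for RORgt-Tbet-KO, and 5.98, 5.95 and 6.70 for RORgt-RORa-KO. RORgt-KO overlapped Control here, and the groups with a second deletion stood above both. It rose by 1.67 in RORgt-RORa-KO (SE 0.32, limma adjusted p = 0.000188). It was also the member peak that RORgt-RORa-KO raised over RORgt-KO, by 1.54 (SE 0.36, limma adjusted p = 0.0203). That second call was lost without RORgt-KO replicate 1 (adjusted p = 0.132), RORgt-KO replicate 2 (0.288) or RORgt-RORa-KO replicate 3 (0.108), or without the mean-variance trend (0.0996). In RORgt-Tbet-KO the difference was 0.98 (limma adjusted p = 0.0465). That call was lost in 7 of the 10 fits without 1 library, without the trend (adjusted p = 0.0588), with only the 2 groups fitted (0.0607) and in thinned reads (0.69, adjusted p = 0.238).

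Inside the gene, the peak at 116137734 to 116137939 showed the largest rise of the 59 in RORgt-RORa-KO. It held 3.96, 3.83 and 1.68 for Control, 4.19 and 4.56 for RORgt-KO, 4.44 and 4.91 for RORgt-Tbet-KO, and 5.19, 6.10 and 4.97 for RORgt-RORa-KO. Control replicate 3 was the lowest library, and no RORgt-RORa-KO library reached down to another group. The difference was 2.26 (SE 0.50, limma adjusted p = 0.000909), and 1.53 at the lowest when any 1 library was left out, with the call kept each time. The peak averaged 21.4 reads per library.

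A further inside peak, at 116122753 to 116123376, held 4.69, 3.69 and 5.14 for Control, 5.37 and 4.46 for RORgt-KO, 5.69 and 5.63 for RORgt-Tbet-KO, and 6.27, 6.60 and 6.05 for RORgt-RORa-KO. Again RORgt-RORa-KO was highest and RORgt-KO overlapped Control. The rise was 1.80 in RORgt-RORa-KO (SE 0.34, limma adjusted p = 0.000181). In RORgt-Tbet-KO it was 1.15 (SE 0.38, limma adjusted p = 0.0301), a call lost without Control replicate 2 (adjusted p = 0.165), RORgt-Tbet-KO replicate 1 (0.176) or replicate 2 (0.148). It was also lost without the mean-variance trend (0.0909) and in thinned reads, where the rise was 0.95 (limma adjusted p = 0.101).

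The peak over the Tgfbr2 start, 116174441 to 116176027, was not called in any contrast. It held 7.67, 8.15 and 8.25 for Control, 8.05 and 7.74 for RORgt-KO, 8.27 and 8.45 for RORgt-Tbet-KO, and 7.97, 7.28 and 8.24 for RORgt-RORa-KO. Control overlapped RORgt-KO and RORgt-RORa-KO, and both RORgt-Tbet-KO libraries lay just above it. The differences from Control were -0.13 (SE 0.23), 0.33 (SE 0.23) and -0.20 (SE 0.20) for RORgt-KO, then RORgt-Tbet-KO, then RORgt-RORa-KO, with limma adjusted p of 0.788, 0.314 and 0.499. The promoter sequence printed above lies within this peak.

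Another 5 Tgfbr2 peaks were called against Control. In RORgt-Tbet-KO, 3 of them rose, by 0.90 to 1.33, and the largest exceeded the called differences of that group given above. The smallest adjusted p of the 12 in RORgt-Tbet-KO was at the inside peak 116160221, which rose by 0.90 (SE 0.22, limma adjusted p = 0.00336). It averaged 216.8 reads per library and is named after its value was seen. Of the same 5 peaks, 4 rose in RORgt-RORa-KO, by 1.11 to 1.51. An inside peak at 116168939 had the lowest estimate of the 12, at -0.77 in RORgt-RORa-KO (SE 0.30, limma adjusted p = 0.0515), named after its value was seen.

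**Figure D2:**
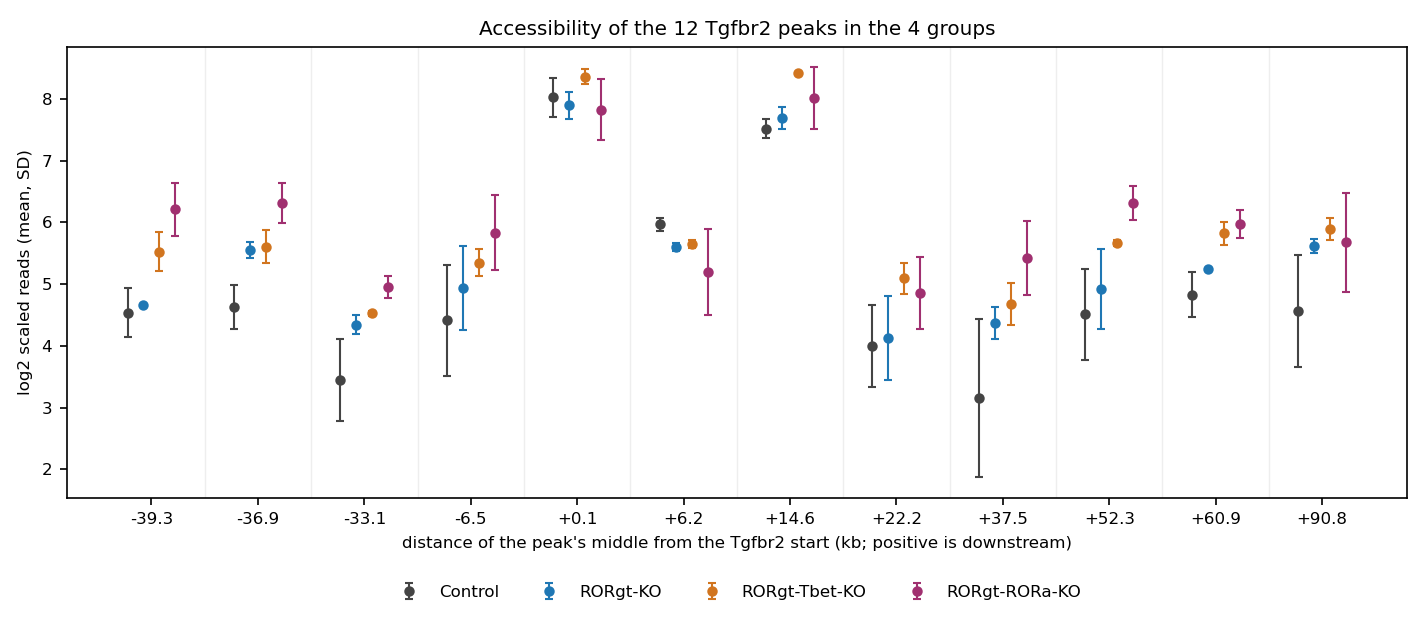
Mean log2 scaled reads with SD (y axis) of the 12 Tgfbr2 peaks in the 4 groups, ordered by distance from the Tgfbr2 start in kb (x axis). RORgt-RORa-KO stands highest at the distal peaks 36.7 and 39.0 kb before the gene, while the groups lie together at the peak over the start.

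Summed over its 12 peaks, Tgfbr2 rose in both groups with a second deletion. The summed log2 values were 9.32, 9.45 and 9.61 for Control, 9.73 and 9.46 for RORgt-KO, 10.09 and 10.14 for RORgt-Tbet-KO, and 10.05, 9.76 and 10.32 for RORgt-RORa-KO. Both double-deleted groups lay above all Control and RORgt-KO libraries. The difference was 0.66 in RORgt-Tbet-KO (SE 0.15, limma adjusted p = 0.00365) and 0.59 in RORgt-RORa-KO (SE 0.14, limma adjusted p = 0.00274), which is 1.58-fold and 1.5-fold. Without RORgt-Tbet-KO replicate 2 the first was 0.63 with an adjusted p of 0.0652. Against RORgt-KO directly the differences were 0.52 (SE 0.17, limma adjusted p = 0.168) and 0.45 (SE 0.15, limma adjusted p = 0.238), so neither passed.

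Tgfbr1 (chromosome 4, 47353222 to 47414926), the type I receptor kinase, had 3 peaks, of which 1 rose in RORgt-RORa-KO and none was called in the other contrasts with Control. This peak, 47351482 to 47351784, 1.44 kb outside the gene, held 4.18, 5.93 and 5.89 for Control, 6.07 and 5.82 for RORgt-KO, 5.69 and 5.83 for RORgt-Tbet-KO, and 6.65, 6.60 and 6.29 for RORgt-RORa-KO. Control replicate 1 was far below the rest. The difference was 1.18 (SE 0.33, limma adjusted p = 0.00603), and 0.61 without Control replicate 1 (adjusted p = 0.0892). For the summed Tgfbr1 peaks limma's adjusted p among the 4 groups was 0.643.

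Smad3 (chromosome 9, 63646766 to 63757994), a receptor-activated SMAD, rose mainly in RORgt-Tbet-KO. Of its 14 peaks, 7 rose there and 3 in RORgt-RORa-KO, and none fell. These were 50% and 21.4% of them, beside 22.6% and 31.2% of all peaks called. In limma's test of any difference among the groups 3 of the 14 passed (21.4%), below the 30.7% of all peaks. In RORgt-KO limma called 0, with 1 lower at an unadjusted p under 0.05 and 0 by voom.

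The peak with the smallest p among the groups, 63732276 to 63733130 inside the gene, held 7.56, 7.24 and 7.44 for Control, 7.82 and 7.76 for RORgt-KO, 8.35 and 8.45 for RORgt-Tbet-KO, and 7.82, 7.34 and 8.12 for RORgt-RORa-KO. Both RORgt-Tbet-KO libraries were above all others, while RORgt-RORa-KO overlapped Control and RORgt-KO. It rose by 0.98 in RORgt-Tbet-KO (SE 0.21, limma adjusted p = 0.000925), a 1.97-fold difference that was called in every alternative and without any 1 library. In RORgt-RORa-KO the estimate was 0.34 (SE 0.18, limma adjusted p = 0.164).

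A second inside peak, 63721520 to 63722007 held 7.51, 7.76 and 7.67 for Control, 7.70 and 7.42 for RORgt-KO, 8.32 and 8.50 for RORgt-Tbet-KO, and 7.96, 7.66 and 8.10 for RORgt-RORa-KO. The RORgt-Tbet-KO libraries were again the highest. It rose by 0.77 against Control (SE 0.19, limma adjusted p = 0.00432), and without RORgt-Tbet-KO replicate 2 by 0.67 (adjusted p = 0.104). It was also the member peak called between RORgt-Tbet-KO and RORgt-KO, at 0.85 (limma adjusted p = 0.0365). Leaving out either RORgt-KO library, either RORgt-Tbet-KO library or RORgt-RORa-KO replicate 1 ended that call, with adjusted p of 0.118, 0.533, 0.217, 0.448 and 0.0585 in turn. It was also lost without the mean-variance trend (0.216), with equal medians (0.0598) and with quantile normalization (0.0557).

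The peak just outside the Smad3 start, 63759086 to 63759414, was called in both groups with a second deletion. Its values were 5.73, 5.37 and 6.07 for Control, 5.33 and 6.32 for RORgt-KO, 6.54 and 6.86 for RORgt-Tbet-KO, and 6.75, 5.99 and 6.88 for RORgt-RORa-KO. RORgt-RORa-KO replicate 2 fell within the Control range, and the RORgt-KO libraries lay on both sides of the Control median. The differences were 0.98 (SE 0.31, limma adjusted p = 0.0230) in RORgt-Tbet-KO and 0.81 (SE 0.28, limma adjusted p = 0.0254) in RORgt-RORa-KO. The first was lost without Control replicate 2 (adjusted p = 0.0963), RORgt-Tbet-KO replicate 1 (0.0745) or replicate 2 (0.230). The second was lost without Control replicate 1 (0.0544), Control replicate 2 (0.124), RORgt-RORa-KO replicate 1 (0.110) or replicate 3 (0.132). Both were lost without the mean-variance trend (0.103 and 0.101) and in thinned reads, with differences of 0.81 and 0.69 (limma adjusted p = 0.0879 and 0.0890).

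The peak over the Smad3 start, 63757794 to 63758674, did not pass in any group. It held 7.35, 7.31 and 7.72 for Control, 7.43 and 7.59 for RORgt-KO, 7.73 and 7.92 for RORgt-Tbet-KO, and 7.58, 7.08 and 7.68 for RORgt-RORa-KO. The estimate in RORgt-Tbet-KO was 0.36 (SE 0.21, limma adjusted p = 0.220).

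**Figure D3:**
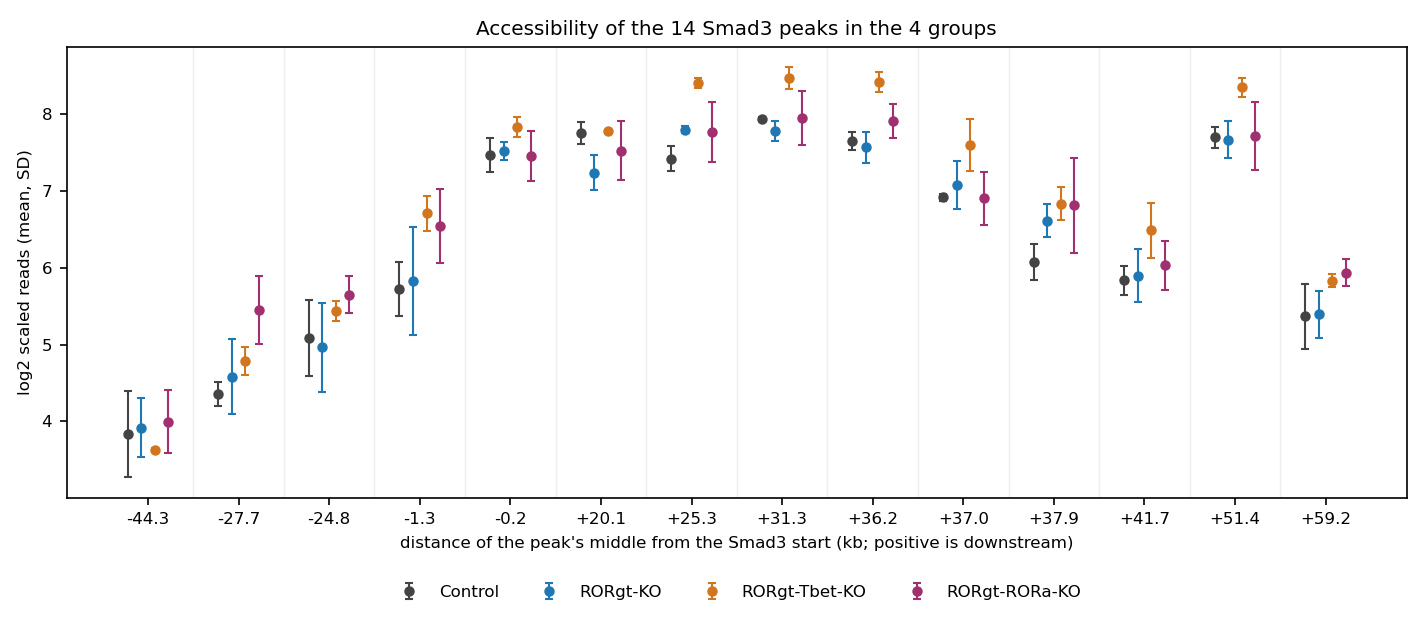
Mean log2 scaled reads with SD (y axis) of the 14 Smad3 peaks in the 4 groups, ordered by distance from the Smad3 start in kb (x axis). RORgt-Tbet-KO is the highest group at the inside peaks that were called, and at the peak over the start its estimate of 0.36 did not pass.

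The summed Smad3 value was 10.68, 10.60 and 10.73 for Control, 10.74 and 10.62 for RORgt-KO, 11.16 and 11.35 for RORgt-Tbet-KO, and 10.91, 10.50 and 11.13 for RORgt-RORa-KO. It rose by 0.59 in RORgt-Tbet-KO (SE 0.15, limma adjusted p = 0.00691), with 0.49 and an adjusted p of 0.151 without RORgt-Tbet-KO replicate 2. RORgt-RORa-KO spread over both sides of the Control range, with replicate 2 lowest and the deep replicate 3 highest, and its estimate was 0.18 (SE 0.13, limma adjusted p = 0.363). Within that group replicate 3 exceeded replicate 2 in 12 of the 14 Smad3 peaks. The direct difference between RORgt-RORa-KO and RORgt-Tbet-KO was -0.41 (SE 0.15, limma adjusted p = 0.141), so the Smad3 response was not shown to differ between them.

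Smad2 (chromosome 18, 76241090 to 76311748), the other receptor-activated SMAD, had 0 of 5 peaks that passed limma's test among the 4 groups, with 1 at an unadjusted p under 0.05 and 0 by voom. One inside peak, 76259684 to 76259972, was called in RORgt-RORa-KO against Control, at 0.97 (SE 0.37, limma adjusted p = 0.0441). It is named after its value was seen. Summed over its peaks, Smad2 gave limma's adjusted p of 0.294 among the groups, and no contrast with Control passed.

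Smad4 (chromosome 18, 73634790 to 73703791), the partner shared by all receptor-activated SMADs, fell at each of its called peaks. Of its 4 peaks, 2 fell in RORgt-Tbet-KO and 2 in RORgt-RORa-KO, and none rose. Each count is 50% of them, beside 22.6% and 31.2% of all peaks called. In RORgt-KO limma called 0, with 2 lower at an unadjusted p under 0.05 and 0 by voom.

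The inside peak at 73693374 to 73693970 held 6.75, 7.29 and 6.65 for Control, 6.28 and 5.90 for RORgt-KO, 5.61 and 5.93 for RORgt-Tbet-KO, and 5.19, 5.86 and 6.47 for RORgt-RORa-KO. All knockout libraries were below all Control libraries. It fell by 1.12 in RORgt-Tbet-KO (SE 0.31, limma adjusted p = 0.00881) and by 1.06 in RORgt-RORa-KO (SE 0.28, limma adjusted p = 0.00383). The first was lost without Control replicate 2 (adjusted p = 0.0583) or RORgt-Tbet-KO replicate 1 (0.127), and the second without RORgt-RORa-KO replicate 1 (0.0523). The RORgt-KO estimate was -0.81 (SE 0.31, limma adjusted p = 0.0880).

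A peak 4.24 kb outside the gene, 73630244 to 73630548, held 5.18, 5.76 and 5.0 for Control, 4.28 and 3.97 for RORgt-KO, 4.91 and 3.83 for RORgt-Tbet-KO, and 3.48, 3.82 and 4.01 for RORgt-RORa-KO. Control was the highest group without overlap. The peak fell by 1.54 in RORgt-RORa-KO (SE 0.42, limma adjusted p = 0.00546), and that call was kept without any 1 library. It averaged 19.9 reads per library.

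Summed over its 4 peaks, Smad4 held 8.86, 8.85 and 8.75 for Control, 8.50 and 8.63 for RORgt-KO, 8.41 and 8.28 for RORgt-Tbet-KO, and 8.22, 8.30 and 8.42 for RORgt-RORa-KO. Every knockout library was below every Control library. It fell by 0.51 in RORgt-RORa-KO (SE 0.13, limma adjusted p = 0.00669) and by 0.48 in RORgt-Tbet-KO (SE 0.15, limma adjusted p = 0.0249). The RORgt-Tbet-KO call was lost without Control replicate 1 (adjusted p = 0.0717), Control replicate 2 (0.0704), RORgt-Tbet-KO replicate 1 (0.107) or replicate 2 (0.248).

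Smad7 (chromosome 18, 75367365 to 75395935), the inhibitory SMAD and itself a TGF-beta target, rose at a distal peak in both groups with a second deletion. This peak, 75353405 to 75353983, 13.4 kb outside the gene, held 7.35, 6.93 and 7.32 for Control, 8.01 and 7.41 for RORgt-KO, 8.31 and 8.21 for RORgt-Tbet-KO, and 8.31, 8.37 and 8.66 for RORgt-RORa-KO. All Control libraries were below all knockout libraries, and RORgt-KO lay lowest among the knockouts. The peak rose by 1.06 in RORgt-Tbet-KO (SE 0.20, limma adjusted p = 0.000387) and by 1.25 in RORgt-RORa-KO (SE 0.18, limma adjusted p = 5.18e-06), and both calls were kept under every alternative and without any 1 library. In RORgt-KO the estimate was 0.51 (SE 0.20, limma adjusted p = 0.105).

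Of the 7 Smad7 peaks, 1 rose in RORgt-Tbet-KO and 2 in RORgt-RORa-KO. These were 14.3% and 28.6% of them, below the 22.6% and 31.2% of all peaks called. The second peak that rose in RORgt-RORa-KO was inside the gene, at 75377207 to 75378041. Its difference was 0.47 (SE 0.18, limma adjusted p = 0.0409), and it is named after its value was seen. The summed Smad7 value did not pass among the groups (limma adjusted p = 0.115).

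Ski (chromosome 4, 155154075 to 155222535), a corepressor that binds SMAD proteins, rose in RORgt-Tbet-KO at a strong inside peak. At 155200569 to 155201738 the values were 9.47, 8.87 and 9.12 for Control, 9.49 and 9.14 for RORgt-KO, 10.12 and 10.12 for RORgt-Tbet-KO, and 9.49, 8.87 and 10.03 for RORgt-RORa-KO. The RORgt-Tbet-KO libraries were highest, and RORgt-RORa-KO ran from about the Control minimum to just under RORgt-Tbet-KO. The difference was 0.97 in RORgt-Tbet-KO (SE 0.23, limma adjusted p = 0.00261), a 1.95-fold rise. The estimate in RORgt-RORa-KO was 0.31 (SE 0.20, limma adjusted p = 0.257).

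The inside peak at 155197764 to 155198024 held 6.18, 6.44 and 6.43 for Control, 6.66 and 6.43 for RORgt-KO, 7.23 and 7.44 for RORgt-Tbet-KO, and 6.94, 6.75 and 6.76 for RORgt-RORa-KO. It rose by 0.98 in RORgt-Tbet-KO (SE 0.22, limma adjusted p = 0.00189), and by 0.88 without RORgt-Tbet-KO replicate 2, where the call was lost (adjusted p = 0.0692). Of the 9 Ski peaks, 2 rose in each group with a second deletion. Each count is 22.2% of them, near the 22.6% of all peaks called in RORgt-Tbet-KO and below the 31.2% in RORgt-RORa-KO. The test of any difference among the groups also passed 22.2%, below the 30.7% of all peaks. The 2 that rose in RORgt-RORa-KO were other peaks, at 155178307 and 155207833, with differences of 0.97 (SE 0.33, limma adjusted p = 0.0271) and 1.09 (SE 0.41, limma adjusted p = 0.0449), named after their values were seen.

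The summed Ski value was 10.36, 9.95 and 10.24 for Control, 10.49 and 10.22 for RORgt-KO, 10.87 and 10.91 for RORgt-Tbet-KO, and 10.58, 10.12 and 10.88 for RORgt-RORa-KO. RORgt-RORa-KO replicate 2 fell among the Control libraries and replicate 3 reached the RORgt-Tbet-KO level. Replicate 3 exceeded replicate 2 in 8 of the 9 Ski peaks, against 46.5% of all peaks. Both RORgt-Tbet-KO libraries and RORgt-RORa-KO replicate 3, with the highest Ski sums, were also the deepest libraries. Beyond the thinning of reads, the part of depth in the Ski values was not tested. The sum rose by 0.70 in RORgt-Tbet-KO (SE 0.17, limma adjusted p = 0.00468), and by 0.68 with an adjusted p of 0.0637 without RORgt-Tbet-KO replicate 2.

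Skil (chromosome 3, 31095058 to 31122923), the second corepressor and a paralogue of Ski, went the other way at its called peaks. The peak at 31124394 to 31125097, 1.47 kb outside the gene, held 7.23, 6.86 and 6.48 for Control, 6.22 and 6.01 for RORgt-KO, 6.50 and 6.25 for RORgt-Tbet-KO, and 5.13, 5.46 and 4.93 for RORgt-RORa-KO. RORgt-RORa-KO was below every other library. The peak fell by 1.69 in RORgt-RORa-KO against Control (SE 0.25, limma adjusted p = 5.58e-06), called under every alternative and without any 1 library. It was also the member peak called between RORgt-RORa-KO and RORgt-Tbet-KO, at -1.20 (limma adjusted p = 0.00534), and without RORgt-Tbet-KO replicate 1 that difference was -1.08 (adjusted p = 0.148).

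A weaker peak 13.7 kb outside the gene, 31081122 to 31081356, fell in all 3 knockout groups. Its values were 5.46, 5.86 and 5.26 for Control, 4.19 and 3.97 for RORgt-KO, 3.61 and 4.27 for RORgt-Tbet-KO, and 3.29, 3.99 and 3.43 for RORgt-RORa-KO. All Control libraries were above all knockout libraries. It fell by 1.96 in RORgt-RORa-KO (SE 0.42, limma adjusted p = 0.000644), a call kept without any 1 library. It fell by 1.59 in RORgt-Tbet-KO (SE 0.47, limma adjusted p = 0.0150) and by 1.45 in RORgt-KO (SE 0.47, limma adjusted p = 0.0410), where it was the peak called for this group.

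Both of the latter calls rested on single libraries. The RORgt-Tbet-KO call was lost without Control replicate 2 (adjusted p = 0.0730), RORgt-Tbet-KO replicate 1 (0.217) or replicate 2 (0.0504), and in thinned reads, at -1.17 (adjusted p = 0.104). The RORgt-KO call was lost without Control replicate 1 (0.0804), Control replicate 2 (0.154), either RORgt-KO library (0.155 and 0.225) or either RORgt-Tbet-KO library (0.0542 and 0.0605). The peak averaged 19.2 reads per library.

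Summed over 5 peaks, Skil held 10.58, 10.45 and 10.13 for Control, 10.42 and 10.16 for RORgt-KO, 10.34 and 10.35 for RORgt-Tbet-KO, and 9.82, 9.66 and 10.40 for RORgt-RORa-KO. RORgt-RORa-KO replicate 3 lay within the Control range. The difference there was -0.43 (SE 0.15, limma adjusted p = 0.0440), and the call was lost in 8 of 10 fits that left out 1 library and in 7 of 10 other alternatives. The test among the 4 groups did not pass (limma adjusted p = 0.131).

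**Figure D4:**
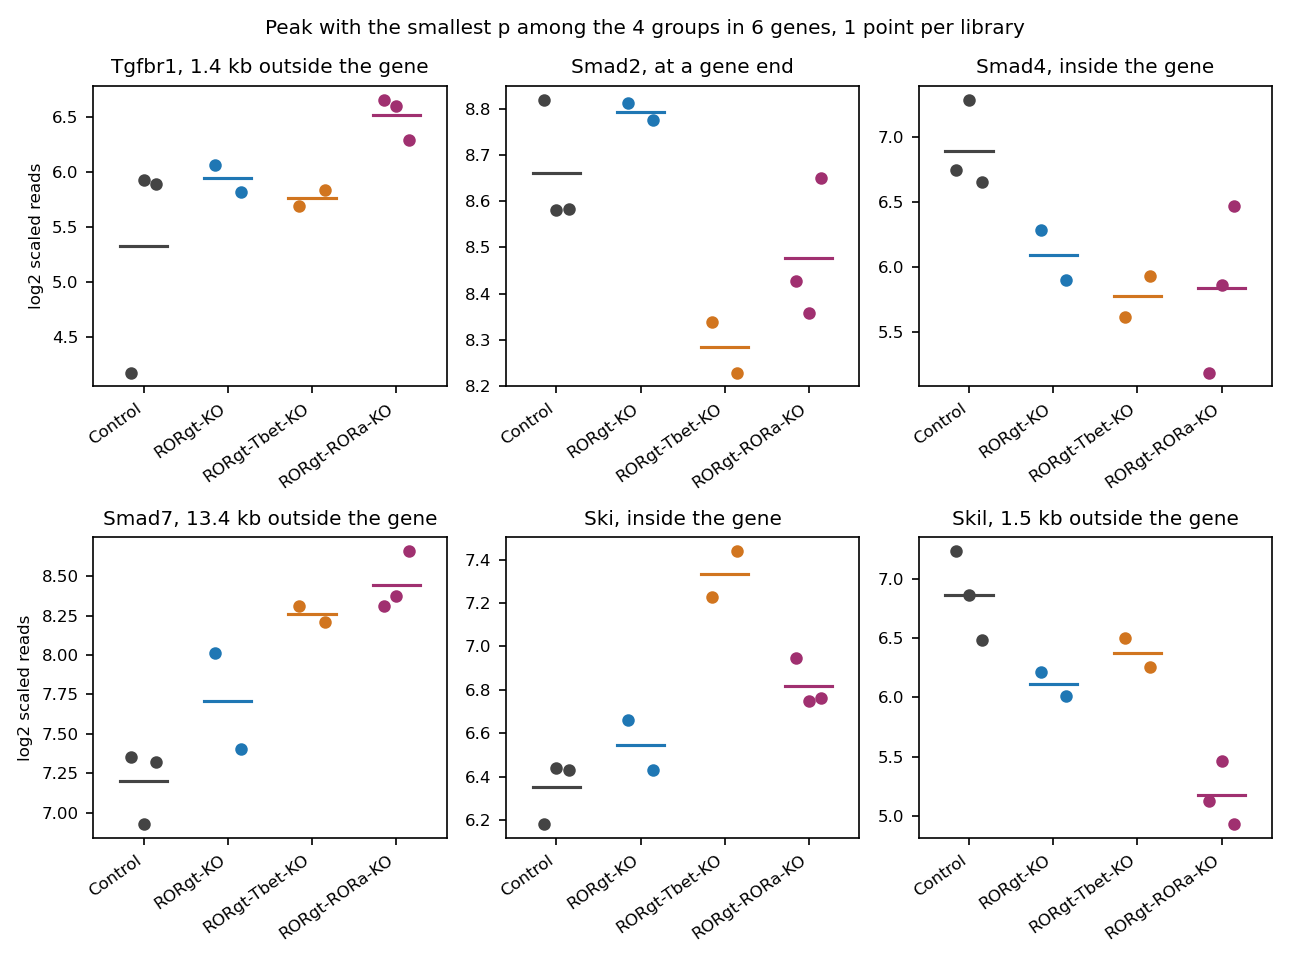
Log2 scaled reads (y axis) in each library of the 4 groups (x axis), 1 panel per gene, for the peak with the smallest p among the groups in Tgfbr1, Smad2, Smad4, Smad7, Ski and Skil. Points are libraries, bars are group means, and each panel has its own y range. The Smad2 peak lies at the gene end and did not pass the test. The Smad7 peak is higher in every knockout library than in Control, and the Skil peak is lowest in RORgt-RORa-KO.

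Over all peaks of a gene, 4 of the 8 genes differed among the groups (Tgfbr2, Smad3, Smad4 and Ski, with limma adjusted p of 0.00267, 0.0196, 0.0222 and 0.0188), beside 22.7% of 13147 genes. Against Control, the sums of 4 genes passed in RORgt-Tbet-KO (21% of all genes) and 3 in RORgt-RORa-KO (23.7%). In RORgt-KO limma's adjusted p of the 8 sums ran from 0.232 for Smad7 to 0.986 for Smad3, beside 5.68% of all genes called. The order of the summed levels was RORgt-Tbet-KO highest for Tgfbr2, Smad3 and Ski, and Control highest for Smad4. For Tgfbr2 the means of RORgt-RORa-KO and RORgt-Tbet-KO differed by -0.07 (SE 0.15), which is within the error. Without 1 library, 1 to 5 genes passed, with 1 without Control replicate 2, RORgt-Tbet-KO replicate 1 or RORgt-Tbet-KO replicate 2, and 2 without Control replicate 1. Without the mean-variance trend, limma's adjusted p in RORgt-Tbet-KO was 0.0681 for the Smad3 sum, 0.0679 for the Ski sum, 0.0765 for the strong Ski peak and 0.0652 for the inside Smad4 peak, and that of the Tgfbr1 peak in RORgt-RORa-KO was 0.0607. With the medians of all peaks set equal, the Smad4 sum in RORgt-Tbet-KO had an adjusted p of 0.0613, and over peaks within 5 kb it had 0.0727. Among the knockouts, 1 of the 59 member peaks was called in each direct contrast. The background was 1.14% of all peaks for RORgt-Tbet-KO against RORgt-KO, 1.47% for RORgt-RORa-KO against RORgt-KO and 7.54% for RORgt-RORa-KO against RORgt-Tbet-KO.

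**Figure D5:**
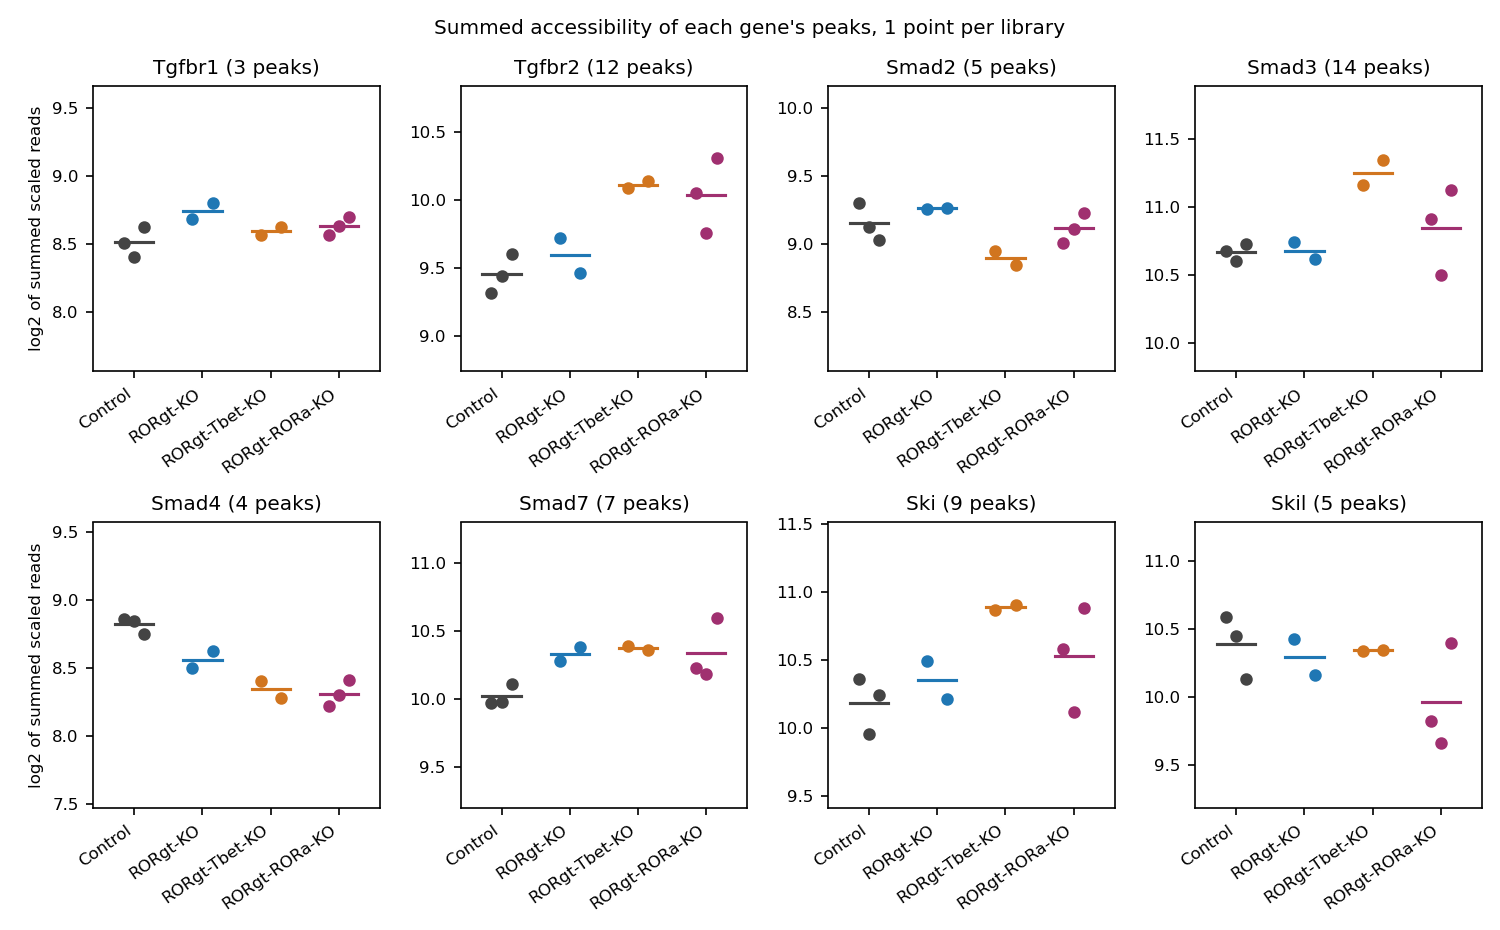
Log2 of the summed scaled reads over each gene's peaks (y axis) in each library of the 4 groups (x axis), 1 panel per member gene, with bars at the group means. Tgfbr2, Smad3 and Ski are highest in RORgt-Tbet-KO, Smad4 is highest in Control, and the other 4 genes did not pass the test among the groups.

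Other genes of the pathway were counted from 5 lists. Of 34 peaks of ligands and their activators, 6 rose and 6 fell in RORgt-Tbet-KO, and 3 rose and 8 fell in RORgt-RORa-KO. Of 21 peaks of other receptors of the family, none rose and 6 fell in RORgt-Tbet-KO, and 1 rose and 7 fell in RORgt-RORa-KO. Their median differences were -0.49 and -0.35, beside -0.16 and -0.05 for the ligands. In RORgt-KO, 2 ligand peaks rose and 5 fell, and 2 receptor peaks fell. The shares called for RORgt-KO, then RORgt-Tbet-KO, then RORgt-RORa-KO were 20.6%, 35.3% and 32.4% for ligands and 9.52%, 28.6% and 38.1% for receptors, beside 12.3%, 22.6% and 31.2% of all peaks. Lower peaks were 11.3% and 16.1% of all peaks for the groups with a second deletion.

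The falls were large at 4 of these genes. A peak on chromosome 2 (133586449 to 133586828), 23.6 kb outside Bmp2, a bone morphogenetic protein ligand, differed from Control by -2.36 in RORgt-KO, -2.70 in RORgt-Tbet-KO and -3.87 in RORgt-RORa-KO. One on chromosome 3 (142033671 to 142034485) inside Bmpr1b, a type I receptor for such ligands, gave -2.74, -4.24 and -3.81 in the same order. One on chromosome 2 (48834118 to 48834564) inside Acvr2a, a type II activin receptor, gave -2.41, -2.80 and -2.65. One on chromosome 13 (16011809 to 16012773) inside Inhba, which encodes an activin subunit, gave -1.01, -1.18 and -1.80. Each of these differences passed limma's adjusted threshold.

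Among 60 peaks of other SMADs and intracellular regulators, 9 rose and 2 fell in RORgt-KO, 9 rose and 6 fell in RORgt-Tbet-KO, and 10 rose and 9 fell in RORgt-RORa-KO. The shares called were 18.3%, 25% and 31.7%, the last 2 near the background of 22.6% and 31.2%. Nedd4l, a ubiquitin ligase that limits SMAD signalling, had an inside peak with differences of -1.02, -1.66 and -1.35, each past limma's adjusted threshold. Ldlrad4, an inhibitor of the pathway, had an inside peak that rose by 0.85 in RORgt-KO and by 0.97 in RORgt-RORa-KO. Another inside peak of Ldlrad4 rose by 1.73 in RORgt-Tbet-KO (SE 0.27, limma adjusted p = 3.62e-05). Of 35 peaks of nuclear SMAD partners, 5 fell and none rose in RORgt-KO, 3 rose and 5 fell in RORgt-Tbet-KO, and 3 rose and 9 fell in RORgt-RORa-KO. These were 14.3%, 22.9% and 34.3% of them, near the background in each comparison. A peak 26.8 kb outside Zeb2, a repressor that binds SMADs, gave -1.22, -1.02 and -2.29, each past the threshold. The smallest adjusted p of this list in RORgt-Tbet-KO was for a rise, of 1.47 at a peak 12.8 kb outside Snai1 (SE 0.26, limma adjusted p = 0.000129).

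Of 30 peaks of TGF-beta target genes, 4 rose and 3 fell in RORgt-Tbet-KO, and 4 rose and 3 fell in RORgt-RORa-KO. Both counts are 23.3% of the list, near the 22.6% of all peaks called in RORgt-Tbet-KO and below the 31.2% in RORgt-RORa-KO. In RORgt-KO limma called 0 of the 30, with 4 higher and 5 lower at an unadjusted p under 0.05 and 2 lower by voom. A peak 7.63 kb outside Itga1, a collagen-binding integrin subunit of tissue-resident lymphocytes, fell by 3.91 in RORgt-Tbet-KO (SE 0.61, limma adjusted p = 3.54e-05).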

How the data were processed

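ATAC-seq was measured in 10 libraries. Per the submitters' processing notes, the authors used Trim Galore 0.62, Bowtie2 2.3.5.1, SAMtools and MACS2, with GRCm38 as the build. The sources used here do not say whether peaks were called per library or pooled. The deposited values are log2 scaled reads per peak, in 1 table of 36262 peaks. All non-empty values were whole multiples of 1 step per library within 0.01, which gave the reads, and empty peaks held 0.9 of a step. The 11 peaks on Y were left out.

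Peaks were assigned to the nearest protein-coding gene body (RefSeq, GRCm38.p6), which carries no exons here, so exon and intron were not separated. Limma 3.58.1 in R 4.3.3 fitted all 4 groups with a mean-variance trend (6 residual and 22.5 prior degrees of freedom), with 6 contrasts and an F test adjusted by the Benjamini-Hochberg method over all 36251 peaks. Gene sums used the linear values of a gene's peaks, over 13147 genes. The script was tested on simulated data. Named peaks were each gene's strongest gene-end peak and up to 4 with the smallest F p past 0.05; others are given by range and count. For the pathway lists they were the best peak of the 2 genes per list and contrast with the smallest adjusted p, of which some are shown. Some items that these rules name are not reported here. The members, the 5 pathway lists and the 6 marker lists were chosen with earlier results of these data known. The labels call the libraries biological replicates. Alternatives covered scaling, trend, filters, library weights, a replicate block, voom on recovered reads, pseudocount, distance and leaving out each library; thinning was added after the data were seen. Figures were drawn with matplotlib 3.10.9.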

Additional observations from a re-analysis of the deposited data

How the results depend on the processing

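No difference of a called named peak or called gene sum changed sign, and the signs of differences that were not called were not followed. Of 26 called pairs of named peak and contrast, 11 were called without any 1 library, 15 under every other alternative and 10 under all of them; of 7 called gene sums, 2 were called under all. Leaving out 1 library gave 0 to 5 member peaks for RORgt-KO against Control, 5 to 23 for RORgt-Tbet-KO, 14 to 24 for RORgt-RORa-KO, 0 to 4 for RORgt-Tbet-KO against RORgt-KO, 0 to 2 for RORgt-RORa-KO against RORgt-KO, 0 to 9 for RORgt-RORa-KO against RORgt-Tbet-KO, 11 to 24 for any difference among the groups, 1 to 5 genes and 48 to 67 pathway peaks (1, 19, 21, 1, 1, 1, 20, 4 and 62 with all libraries). The lone library of a reduced group was assumed to vary like the others. RORgt-KO against Control gave 7 with library weights, 8 with the replicate block, 2 with equal medians, quantile normalization, thinned reads, voom or only the 2 groups fitted, and 0 within 5 kb or with at least 20 reads. RORgt-Tbet-KO against Control gave 29 with library weights, 8 without the trend and 12 in thinned reads. RORgt-Tbet-KO against RORgt-KO gave 11 with library weights, 12 with only the 2 groups fitted, 2 with voom or the replicate block, and 0 with equal medians, quantile normalization or no trend. RORgt-RORa-KO against RORgt-KO gave 4 with library weights, 2 with quantile normalization or only the 2 groups, and 0 without the trend or within 5 kb. RORgt-RORa-KO against RORgt-Tbet-KO gave 11 with library weights, 6 with voom or the replicate block, and 2 with quantile normalization or at least 20 reads. Any difference gave 35 with library weights and 10 without the trend; gene sums gave 7 and 0; pathway peaks gave 41 within 5 kb. The cause of these shifts was not tested, except that the 20-read setting tests fewer peaks and the 5 kb setting counts fewer. For peaks the 5 kb setting kept the main fit and left out those farther away, so it could not change the call of a named peak. Gene sums were fitted again under it. Deviations from the group mean correlated at -0.12 to 0.14 over 13 pairs of libraries with the same replicate number and -0.14 to 0.14 over 24 others. In a group of 2 libraries the deviations mirror each other, so the 2 ranges are partly fixed in advance. They do not settle whether replicate numbers pair the libraries. Depth limits the weakest members, since 53 of 59 peaks averaged at least 20 reads.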

Other observations

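Peaks of marker genes were counted beside a background of 12.3%, 22.6% and 31.2% of all peaks called for RORgt-KO, then RORgt-Tbet-KO, then RORgt-RORa-KO. Of 13 B cell marker peaks, none rose and 5, 5 and 6 fell for RORgt-KO, then RORgt-Tbet-KO, then RORgt-RORa-KO, and all of these lay at Blk, Ebf1, Pax5 or Cr2, since the other B cell genes had no peak; the shares were 38.5%, 38.5% and 46.2%. Of 11 T cell marker peaks, 2, 4 and 6 rose and 1, 2 and 2 fell in the same order, which is 27.3%, 54.5% and 72.7% of them. A peak 79 bp outside Cd3e, a subunit of the T cell receptor complex, rose by 1.85 in RORgt-Tbet-KO (SE 0.29, limma adjusted p = 4.19e-05) and by 2.07 in RORgt-RORa-KO (SE 0.26, limma adjusted p = 5.87e-07). A peak inside Cd5, another T cell gene of the list, fell by 2.39 in RORgt-KO (SE 0.63, limma adjusted p = 0.0104). Of 5 myeloid peaks, 1, 1 and 2 rose and none fell (20%, 20% and 40%). Of 12 epithelial peaks, 2, 1 and 3 rose and 1, 0 and 2 fell (25%, 8.33% and 41.7%). Of 19 stromal and endothelial peaks, 2, 4 and 5 rose and 1, 0 and 3 fell (15.8%, 21.1% and 42.1%). The summed stromal and endothelial level was 10.27 to 10.38 for Control and 10.67 to 10.73 for RORgt-Tbet-KO, without overlap, and the other groups overlapped Control. The myeloid level was 8.02 to 8.41 for Control and 8.34 to 8.66 over the knockout libraries. Of 99 ILC marker peaks, 12, 24 and 24 rose and 5, 5 and 12 fell (17.2%, 29.3% and 36.4%). This list includes Rora, the gene that is floxed in RORgt-RORa-KO. The summed ILC level was 13.39 to 13.57 for Control, 13.42 to 13.55 for RORgt-KO, 13.81 in both RORgt-Tbet-KO libraries and 13.52 to 13.80 for RORgt-RORa-KO. A peak 7.29 kb outside Il23r, the receptor for interleukin 23, rose by 1.70 in RORgt-KO and by 2.80 in RORgt-RORa-KO. The part of these marker values in the values of the TGF-beta genes was not tested.

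For each member gene, the genes whose summed accessibility was most like it over the 10 libraries were listed among 6450 genes, as a description. They were Tuba1c (Pearson r = 0.98) and Bri3 (0.98) for Tgfbr2, Ccr1 (0.98) and Spef1l (0.97) for Smad3, Tef (0.99) and Cryzl1 (0.99) for Ski, and Vps13a (0.97) and Stmn2 (0.96) for Smad4. For the others they were Cox7a2l (0.97) and Stx4a (0.92) for Tgfbr1, AW554918 (0.89) and Osbpl8 (0.88) for Smad2, Ulk1 (0.96) for Smad7, and Ube2d3 (0.97) and Sec31a (0.97) for Skil. The libraries share groups and depth, and the genes were searched for the highest values.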
